A study of Rattus norvegicus with 12 samples.

Results

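What L-DOPA changed in the dorsal striatum of rats that also received high frequency stimulation of the subthalamic nucleus (STN-HFS) was examined by comparing 3 DOPA/HFS arrays with 3 HFS arrays. These 6 arrays, chosen by their sample titles, are 6 of the 12 in the series, and each holds the RNA of 1 male rat. All 6 rats had 9 µg of 6-OHDA injected into the left substantia nigra pars compacta, so the control group of this comparison carried the lesion and the stimulating electrode as well. In both groups the lesioned side was stimulated without interruption for 5 days, with a pulse width of 80 µs, a current of 60 µA and a rate of 130 Hz. The DOPA/HFS rats were in addition given 25 mg/kg L-DOPA with 12.5 mg/kg benserazide by repeated daily injection for 19 days. The other 6 arrays, from lesioned rats given L-DOPA (DOPA) or no treatment (6-OHDA), enter only where they are named. No unlesioned group is among the arrays analysed here.

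L-DOPA is converted to dopamine in the brain. In a striatum that has lost its dopamine input, dopamine receptor D1 on neurons of the direct pathway is supersensitive, and activation of D1 drives cAMP and ERK signalling, immediate early genes and, after repeated doses, neuropeptide genes such as Pdyn (dynorphin precursor) and Trh (thyrotropin-releasing hormone precursor). This sequence is known for its link with L-DOPA-induced dyskinesia. Neurons of the indirect pathway carry the D2 receptor and express Penk (enkephalin precursor).

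Values are log2 signals after background subtraction by the scanner software and quantile normalization among the 6 arrays, and a difference is DOPA/HFS minus HFS with its standard error (n = 3 rats per group). Between 60 and 63.2% of the spots were well above background on these arrays. The DOPA/HFS 3 array had 4175 outlier spots, against at most 25 on the others. As a consequence 2176 of the 21125 genes tested lack its value, and the fit drops that array for them. Each slide carried 1 array of each group, always at the same position, so position on the slide and treatment cannot be told apart. The arrays held RNA rich in striatal transcripts, with Penk between 16.48 and 16.88 and Adora2a (an adenosine receptor) between 15.16 and 15.5.

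In part of the genes, a pair of arrays differed from the rest of their groups. The signals of DOPA/HFS 1 correlated best with HFS 3 (r = 0.99 over genes measured on all 6). Its correlation with DOPA/HFS 2 was 0.979 and with DOPA/HFS 3 0.976. DOPA/HFS 2 also correlated best with an HFS array (HFS 1, 0.985), and DOPA/HFS 3 reached 0.979 with both DOPA/HFS 2 and HFS 2. To correlate best with an HFS array was thus not particular to DOPA/HFS 1. Its 0.99 with HFS 3 was still the highest of all pairs, above HFS 2 with HFS 3 (0.988). DOPA/HFS 1 held the lowest Trh and Pdyn of its group. Its Fos and Ttr lay below all HFS arrays, like those of DOPA/HFS 2 and 3. Whether its label is right was not tested, and every group mean and difference below includes it unless said otherwise. HFS 2 had less RNA of the choroid plexus, the epithelium that secretes cerebrospinal fluid, than HFS 1 and HFS 3. For the genes and lists that these arrays move most, values without them are given too, from a fit without the slide block. Both arrays were picked by such genes, so these values are a description and not a test.

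No single gene passed the test. In limma with the slide as a block, 0 of 21125 genes (0%) met the limits set for a call, which were an adjusted p (Benjamini-Hochberg) below 0.1 and a ratio of DOPA/HFS to HFS outside 0.8 to 1.2. The lowest adjusted p was 1. At an unadjusted p under 0.05, 164 genes were higher and 419 were lower in DOPA/HFS. Without the block 0 genes were called and the lowest adjusted p was 0.177. Among the 18949 genes that no array lacks, an unadjusted p under 0.05 was reached by 136 higher genes (0.718%) and 347 lower genes (1.83%). In 427 genes (2.25%) every DOPA/HFS array lay above every HFS array, and in 788 (4.16%) every one lay below. Over both directions, the shares at that p stay below the 0.05 that arises where no gene differs. The shares without overlap stay below 0.1, the smallest exact permutation p. The median difference of all genes was -0.02. The split depends on the processing: at an unadjusted p under 0.05, 42 genes were higher and 500 lower in the deposited log2 values, 64 and 367 with the outlier spots kept, and the median of all genes moved to -0.12 and -0.14 respectively. Leaving out DOPA/HFS 1 in a fit without the block gave 9 called genes, leaving out HFS 2 gave 19, leaving out DOPA/HFS 2 gave 1, and leaving out slide 2 in the blocked fit gave 86. The genes below are therefore described by their values, and higher or lower means the direction of the mean.

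The genes that the study lists as raised by L-DOPA alone were mostly higher under L-DOPA on the stimulated background too. That list, of genes higher in DOPA than in 6-OHDA rats, was chosen on arrays outside this comparison. All 79 genes of it were on the array, 75 were tested and 67 had a value on all 6 arrays. Of these 67, 57 were higher and 10 lower in DOPA/HFS, while 46.2% of all genes were higher. At an unadjusted p under 0.05, 12 were higher and 3 lower, against 0.718% and 1.83% of all genes. The median difference was 0.32, beside -0.02 for all genes. The 3 lower genes were Nr4a3, Kcnj13 and Sfxn5, of which the first belongs to the immediate early genes and the second to the choroid plexus genes described later. The size of this shift depended on the arrays and the processing. Without DOPA/HFS 1 the median was 0.47 and 32 of 71 genes were higher at that p, against 439 of all 19382 genes in that fit. The median was 0.58 without slide 1, 0.2 without slide 2 and 0.21 without slide 3. Without slide 2, 45 were higher and 22 lower, with 3 higher at that p, against 143 of all 18940 genes. In the deposited log2 values the median was 0.13 (45 higher and 22 lower).

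Trh had the largest increase of the list. Its log2 signal was 7.97, 10.63 and 11.16 in DOPA/HFS 1 to 3 and 7.74, 7.93 and 7.96 in HFS 1 to 3. DOPA/HFS 2 and 3 stood far above the HFS arrays, while DOPA/HFS 1 was level with the highest HFS array. The difference was 2.05 ± 0.56 (adjusted p of 1 in limma, exact two-sided permutation p = 0.1, the smallest that 3 against 3 arrays allow). Without DOPA/HFS 1 it was 3.03. That array was singled out partly by its low Trh, so a p-value obtained without it would not test this gene.

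Pdyn, the dynorphin precursor, read 14.78, 15.98 and 15.91 in DOPA/HFS and 14.9, 14.82 and 14.47 in HFS. DOPA/HFS 1 lay within the HFS range here, and the difference was 0.83 ± 0.34, or 1.22 without DOPA/HFS 1. Tac3 (neurokinin B precursor) had the same layout, with 13.29, 14.68 and 14.48 against 13.46, 13.21 and 13.34, a difference of 0.81 that was 1.24 without DOPA/HFS 1. Of the 21 neuropeptide genes with all values, 13 were higher and 8 lower, with a median of 0.07, and only Trh had an unadjusted p under 0.05. Without DOPA/HFS 1 the median was 0.22, with 4 higher and 1 lower at that p, and it was -0.01 without DOPA/HFS 3. Of all 19382 genes without DOPA/HFS 1, 439 were higher and 709 lower at that p. Among the genes that differed little were Tac1 (substance P precursor, -0.24 ± 0.2) and Penk (0.01 ± 0.21).

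Prkcd, which encodes protein kinase C delta, was higher on each of the 3 DOPA/HFS arrays. It read 12.04, 12.48 and 12.84 against 11.4, 11.52 and 11.61 in HFS. The groups did not overlap and the difference was 0.94 ± 0.22. Of 35 cAMP and ERK signalling genes with all values, Prkcd was the only one at an unadjusted p under 0.05, and 22 were lower with a median of -0.06. That median joined slide medians of 0.36, -0.16 and -0.39. Without slide 1 it was -0.28 with 5 lower at that p, without HFS 1 it was -0.13 with 4 lower, and without slide 3 it was 0.1. Of all genes, 1180 of 19154 were lower at that p without slide 1 and 547 of 19522 without HFS 1.

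Other members of the list differed as follows. Tnnt1 (a troponin T) read 10.19, 10.85 and 11.4 against 9.77, 10.11 and 9.52, a difference of 1.01 ± 0.32 with groups that did not overlap. Ngfr, the low-affinity nerve growth factor receptor, read 7.02, 8.23 and 6.81 against 6.16, 6.33 and 6.57. Hcrtr1 (orexin receptor) read 5.65, 5.93 and 6.26 against 5.25, 5.26 and 5.39, and Emp3 (a membrane protein) read 9.51, 10.07 and 10.27 against 9.36, 9.22 and 9.02. Both groups of arrays were apart in each of these 4 genes. Cpne9 (a copine), Tpbg and Nefh (neurofilament heavy chain) were higher by 0.8, 0.84 and 0.7, but on DOPA/HFS 1 each of them overlapped with the HFS arrays. Without that array they were higher by 1.17, 1.36 and 1.08.

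**Figure D1:**
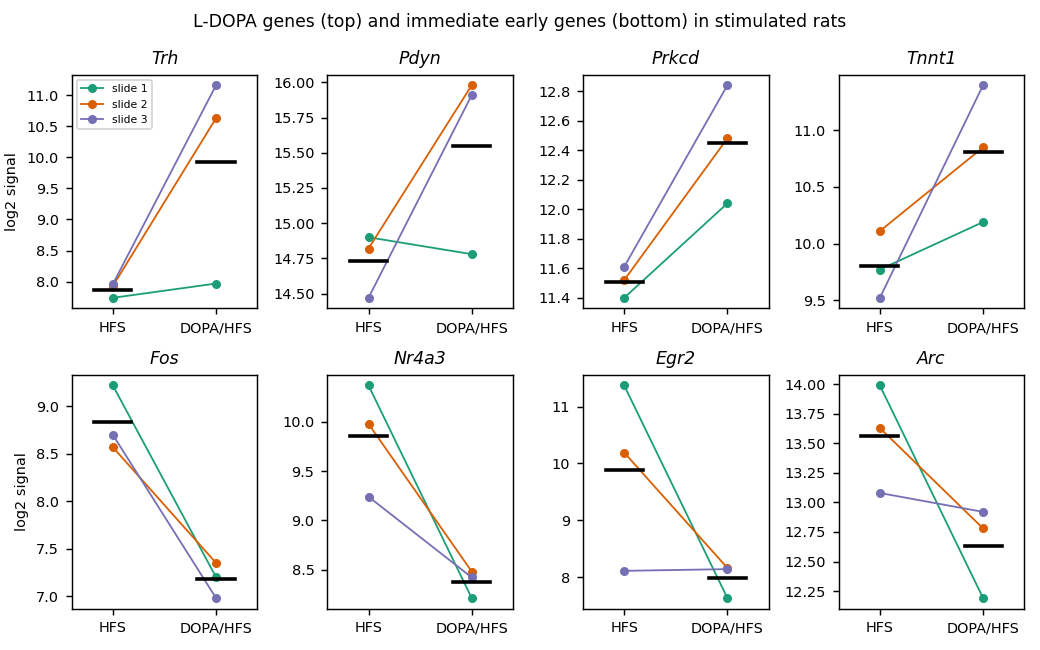
Log2 signal (y axis) of 4 L-DOPA genes (top row) and 4 immediate early genes (bottom row) in HFS and DOPA/HFS rats. Each point is 1 rat, lines join the arrays of 1 slide (colours) and black bars are group means. Slide 1 shows little difference in Trh and Pdyn, and slide 3 shows little in Egr2.

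The genes that the study lists as lowered by L-DOPA alone leaned lower only slightly. Of 78 with all values, 27 were higher (34.6%, against 46.2% of all genes) and 51 lower, and the median was -0.05. At an unadjusted p under 0.05, 0 were higher and 2 lower (2.56%, against 1.83% of all genes). The lower ones at that p were Fos and Tagln2 (transgelin-2, an actin-binding protein). In the deposited log2 values 66 of 78 were lower, as were 15020 of all 18939 genes. By array, the median of these genes against the mean of the HFS arrays was 0.1, -0.05 and -0.13 in DOPA/HFS 1 to 3.

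The list of raised genes also differed by array. Its median against the mean of the HFS arrays was -0.03 in DOPA/HFS 1, 0.53 in DOPA/HFS 2 and 0.42 in DOPA/HFS 3. The summed linear signal of its members was 318000, 419000 and 399000 in the 3 DOPA/HFS arrays and 312000 to 323000 in HFS, so DOPA/HFS 1 lay within the HFS range.

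**Figure D2:**
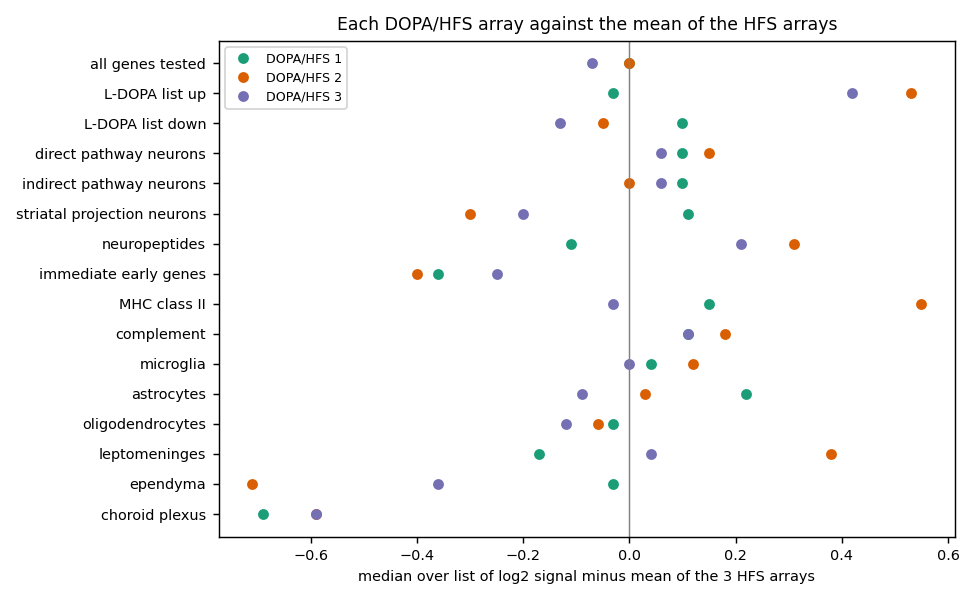
Median over the genes of each list of the log2 signal minus the mean of the 3 HFS arrays (x axis), for each DOPA/HFS array (colours). Points hide each other where 2 arrays agree (DOPA/HFS 1 and 2 for all genes, 1 and 3 for complement, 2 and 3 for choroid plexus). DOPA/HFS 1 stands at -0.03 for the L-DOPA list up, against 0.53 and 0.42.

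Immediate early genes were lower in DOPA/HFS than in HFS. These genes are transcribed within minutes of neuronal activity. The paper reports that the last L-DOPA injection came hours before killing, whereas stimulation ran until immediately before it. Levels soon after a dose were therefore not measured. Of 33 such genes with all values, 28 were lower and 5 higher, while 46.2% of all genes were higher. At an unadjusted p under 0.05, 6 were lower (18.2%) and 0 higher, against 1.83% and 0.718% of all genes. In 7 (21.2%) every DOPA/HFS array lay below every HFS array, against 4.16% of all genes. The median difference was -0.24, and it was -0.68, -0.48 and 0.08 within slides 1, 2 and 3. The lower level was thus not seen on slide 3, and the median was -0.05 without slide 1 (14 higher and 19 lower), -0.13 without HFS 1 and -0.51 without slide 3. HFS 3 had less of these genes than the other HFS arrays, with a summed signal of 120000 against 249000 and 178000, and the DOPA/HFS arrays held 119000, 184000 and 159000.

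Fos, a component of the AP-1 transcription factor, was the member with the lowest p. It read 7.2, 7.35 and 6.98 in DOPA/HFS and 9.22, 8.57 and 8.7 in HFS. All 3 DOPA/HFS arrays were below all HFS arrays, slide 3 included, and the difference was -1.65 ± 0.24 (unadjusted p = 0.000445 in limma). Fosl2, another AP-1 component, read 6.11, 5.49 and 6.17 against 7.17, 7.7 and 6.69, a difference of -1.26 ± 0.35. Fosb, whose product accumulates with repeated stimulation, had a difference of -0.04 ± 0.29.

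Nr4a3, an orphan nuclear receptor, read 8.21, 8.48 and 8.42 against 10.37, 9.98 and 9.24. The groups did not overlap, and the difference was -1.5 ± 0.3. Its relatives did not follow it as clearly, since Nr4a1 read 13.35, 14.41 and 14.7 against 15.74, 14.99 and 13.84 and turned from -0.7 to 0.14 without slide 1, and Nr4a2 had a difference of -0.75 ± 0.78.

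Arc (an activity-regulated protein of the synapse) read 12.19, 12.78 and 12.92 against 13.99, 13.63 and 13.08, and Dusp1 (a phosphatase of MAP kinases) read 9.63, 9.96 and 9.97 against 11.2, 10.71 and 10.16. In both the groups did not overlap but the gap on slide 3 was small. Egr2, a zinc finger factor, read 7.63, 8.16 and 8.14 against 11.37, 10.19 and 8.11, so HFS 3 lay among the DOPA/HFS arrays. Egr1 differed by -0.58 ± 0.32, Junb by -0.52 ± 0.31 and Homer1 by -0.11 ± 0.22, and none of the 3 reached an unadjusted p under 0.05.

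The promoters of genes in these groups are shown because Dusp1 and Egr2 were lower and Trh higher, and because the cAMP response element is the known DNA target of the factor CREB. The letters are the 250 bases before the RefSeq gene start in the rat assembly GRCr8, written 5′ to 3′ on the gene's strand. Capitals mark the cAMP response element TGACGTCA, its core TGACG on either strand (which lies within the full element) and the CArG box, the target of serum response factor.
Dusp1, chr10:17184603-17184852, plus strand: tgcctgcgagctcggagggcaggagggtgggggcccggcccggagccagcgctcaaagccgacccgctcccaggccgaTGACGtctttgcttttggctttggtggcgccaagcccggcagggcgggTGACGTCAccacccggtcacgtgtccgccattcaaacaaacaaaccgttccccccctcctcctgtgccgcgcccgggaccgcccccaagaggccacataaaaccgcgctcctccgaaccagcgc
Egr2, chr20:21054442-21054691, minus strand: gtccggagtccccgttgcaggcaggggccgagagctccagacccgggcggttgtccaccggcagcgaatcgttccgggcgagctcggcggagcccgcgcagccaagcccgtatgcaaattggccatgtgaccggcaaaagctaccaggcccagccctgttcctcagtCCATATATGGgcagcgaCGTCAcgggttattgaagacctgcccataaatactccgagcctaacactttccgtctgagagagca
Trh, chr4:126301763-126302012, minus strand: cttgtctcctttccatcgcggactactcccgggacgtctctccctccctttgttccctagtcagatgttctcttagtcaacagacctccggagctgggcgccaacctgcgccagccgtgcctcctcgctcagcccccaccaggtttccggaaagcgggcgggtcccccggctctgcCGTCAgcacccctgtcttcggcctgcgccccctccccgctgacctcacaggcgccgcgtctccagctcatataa
In Dusp1 the full element ends 117 bases before the start and a further core ends 168 bases before it. In Egr2 the CArG box ends 74 bases before the start and a core 62 bases before it. Trh has a core 70 bases before its start. Of 33465 rat promoters of this length 1.59% hold the full element, 18.2% the core and 1.5% the CArG box. Of the 30 immediate early genes with such a sequence, 5 hold the full element, 17 the core and 4 the CArG box. Of the 62 genes of the study's raised list with such a sequence, 3 hold the full element, 17 the core and 0 the CArG box. A match is a description of letters only.

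Choroid plexus genes showed the largest differences of the comparison, and they were lower in DOPA/HFS. Of 29 with all values, 25 were lower and 4 higher, while 46.2% of all genes were higher. At an unadjusted p under 0.05, 12 were lower (41.4%) and 0 higher, against 1.83% and 0.718% of all genes. The median was -0.6. Genes well above background on the HFS arrays alone, such as Steap1, passed the brightness filter through the group where they are high. Without that filter 33 of 39 were lower and 6 higher, beside 14958 lower of all 32059 genes. At that p 11 were then lower and 0 higher, beside 710 and 306 of all genes. The summed signal of the 29 genes was 23300, 25600 and 22000 in DOPA/HFS and 134000, 32400 and 89900 in HFS 1 to 3. The HFS arrays differed among themselves by more than HFS 2 differed from any DOPA/HFS array.

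Ttr, which encodes the thyroid hormone carrier transthyretin, read 8.42, 9.39 and 2.62 in DOPA/HFS and 16.37, 11.98 and 15.39 in HFS. Ttr was well above background on 2 of the 3 DOPA/HFS arrays, and the difference was -7.77 ± 1.7, or -9.07 without HFS 2. Sostdc1 (an inhibitor of BMP and Wnt signalling) read 6.29, 6.79 and 6.17 against 12.55, 8.11 and 11.76. Aqp1 (a water channel) read 5.21, 5.51 and 5.06 against 8.61, 6.13 and 8.22, and Otx2 (a homeobox factor) read 7.13, 6.95 and 7.37 against 10.08, 7.51 and 9.46. In all of these the groups did not overlap and HFS 2 was the HFS array nearest to DOPA/HFS. Steap1 was not well above background on any DOPA/HFS array and was at least 4.42-fold lower in the main processing. That bound did not hold in the deposited log2 values, where the difference was -1.06, beside -2.67 in the main fit.

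Kcnj13 (an inward rectifier potassium channel of this epithelium) read 2.4, 5.42 and 2.63 against 10.04, 5.86 and 9.12 and was well above background on 1 of 3 DOPA/HFS arrays, with a difference of -4.86 that was -6.09 without HFS 2 and -2.2 in the deposited log2 values. Igf2 (insulin-like growth factor 2) read 11.4, 12.17 and 11.65 against 13.55, 12.55 and 13.21, with a difference of -1.36 ± 0.36, or -1.63 without HFS 2. Without HFS 2, in a fit without the block, the list's median was -1.06, with Sostdc1 at -5.75, Aqp1 at -3.17 and Otx2 at -2.63. That array was singled out by its low choroid plexus signal, so calls made without it do not test these genes. Whether the tissue pieces held different amounts of choroid plexus was not tested, and less RNA per cell and fewer cells of this type cannot be told apart in bulk tissue.

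**Figure D3:**
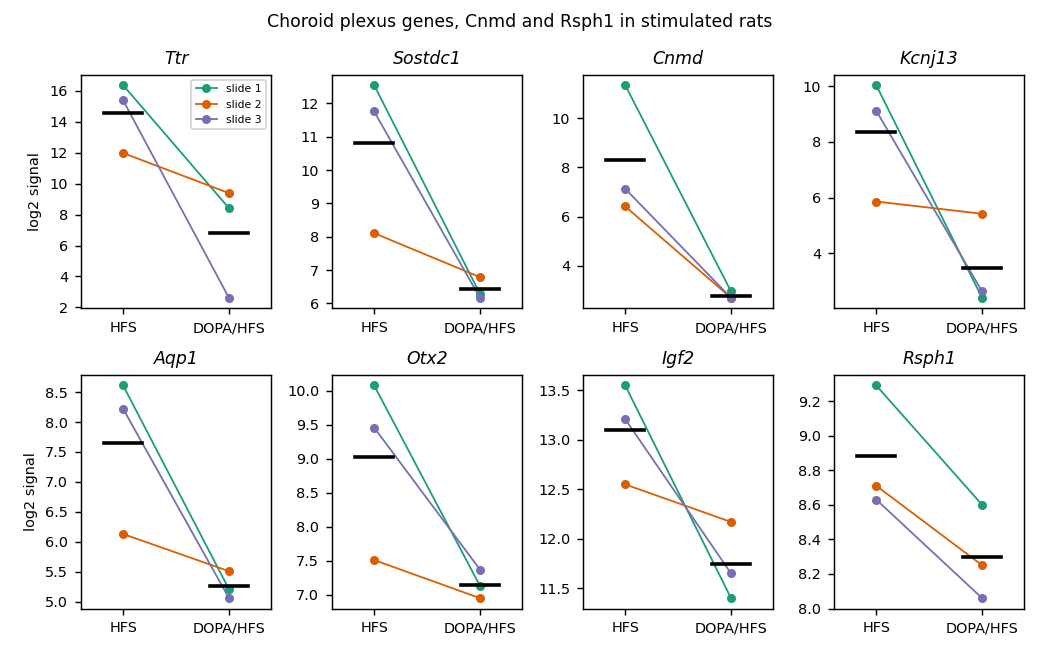
Log2 signal (y axis) in HFS and DOPA/HFS rats of the choroid plexus genes Ttr, Sostdc1, Kcnj13, Aqp1, Otx2 and Igf2, of Cnmd and of the ependymal gene Rsph1. Each point is 1 rat, lines join the arrays of 1 slide and black bars are group means. HFS 2 lies between the other HFS arrays and DOPA/HFS in the choroid plexus genes.

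Ependymal genes, which mark the ciliated lining of the ventricle, were lower in 14 of 14 members with all values, while 46.2% of all genes were higher. Without the brightness filter 15 of 17 were lower. The median of the 14 was -0.4, and it was -0.34, -0.48 and -0.28 within slides 1 to 3. Without HFS 1 the median was -0.14, and without DOPA/HFS 2 it was -0.23. Only Rsph1 (a radial spoke protein of cilia) had an unadjusted p under 0.05. It read 8.6, 8.25 and 8.06 against 9.29, 8.71 and 8.63. Leptomeningeal genes had a median of 0.12 with 11 of 17 higher, from slide medians of -0.33, 0.46 and 0.15. Without slide 2 their median was -0.06 with 4 of 17 higher, and in the deposited log2 values it was -0.05 with 5 of 17 higher, so no direction is given for them.

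The lists of neuronal genes had medians near that of all genes, but in several of them the slides lay on opposite sides of it. Direct pathway genes had a median of 0.1 over 8 genes and indirect pathway genes 0.03 over 7, and in neither list did any member reach an unadjusted p under 0.05. Drd1 (D1 receptor) read 11.04, 10.8 and 10.45 against 10.53, 10.75 and 10.78, and Drd2 (D2 receptor) read 12.05, 11.26 and 11.56 against 11.22, 11.91 and 12.01, and the groups overlapped for both. Striatal projection neuron genes had a median of -0.06 over 22, which joined 0.47, -0.32 and -0.42 within slides 1 to 3. Without slide 1 it was -0.41 with 6 of 22 lower at an unadjusted p under 0.05, and without DOPA/HFS 1 it was -0.3 with 2 lower. Small p-values were then more frequent among all genes too, with 1180 of 19154 lower without slide 1 and 709 of 19382 without DOPA/HFS 1. Cortical genes had a median of 0.02 over 9, which joined 0.8, -0.62 and -0.27. HFS 1 held the least signal of them (a sum of 51300, against 74200 and 79000 in HFS 2 and 3), and without slide 1 the median was -0.29 with 3 of 9 lower at that p. Glutamate receptors (-0.1 over 19) and dopamine genes (0.01 over 12) were highest on slide 1, at 0.19 and 0.34, and lowest on slide 3, at -0.38 and -0.23. GABA interneuron genes had a median of 0.08 over 12. Th, the dopamine synthesis enzyme, read 5.68, 5.65 and 6.19 against 5.48, 5.51 and 5.54, so the groups did not overlap although the difference was 0.33 ± 0.22.

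Glial and immune lists had small medians too. Microglial genes had a median of 0.1 with 11 of 18 higher, astrocyte genes 0.04 over 15 and oligodendrocyte genes -0.06 over 18. Complement genes had a median of 0.17. Of 14, 11 were higher, while 46.2% of all genes were, and 0 reached an unadjusted p under 0.05. C5ar1 (a complement receptor) had the lowest p of them with a difference of 0.68 ± 0.33. In the deposited log2 values the complement median was 0 and the microglial one -0.02, beside -0.12 for all genes. With outlier spots kept they were 0 and -0.01, beside -0.14 for all genes. Major histocompatibility complex class II genes had a median of 0.15 over 4 genes, with Cd74 at 8.78, 8.54 and 7.62 against 8.41, 6.66 and 7.69. The class II median turned to -0.11 without slide 2. Interferon response genes had a median of -0.11 over 23 that turned to 0.1 without slide 1 and to 0.06 without HFS 1. The median was 0.05 over 13 endothelial and pericyte genes and 0.07 over 9 cholinergic interneuron genes. Neuropeptide processing genes had a median of -0.03 over 14, neuropeptide receptor genes of 0.09 over 14 and other transmitter receptors of 0.08 over 22.

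**Figure D4:**
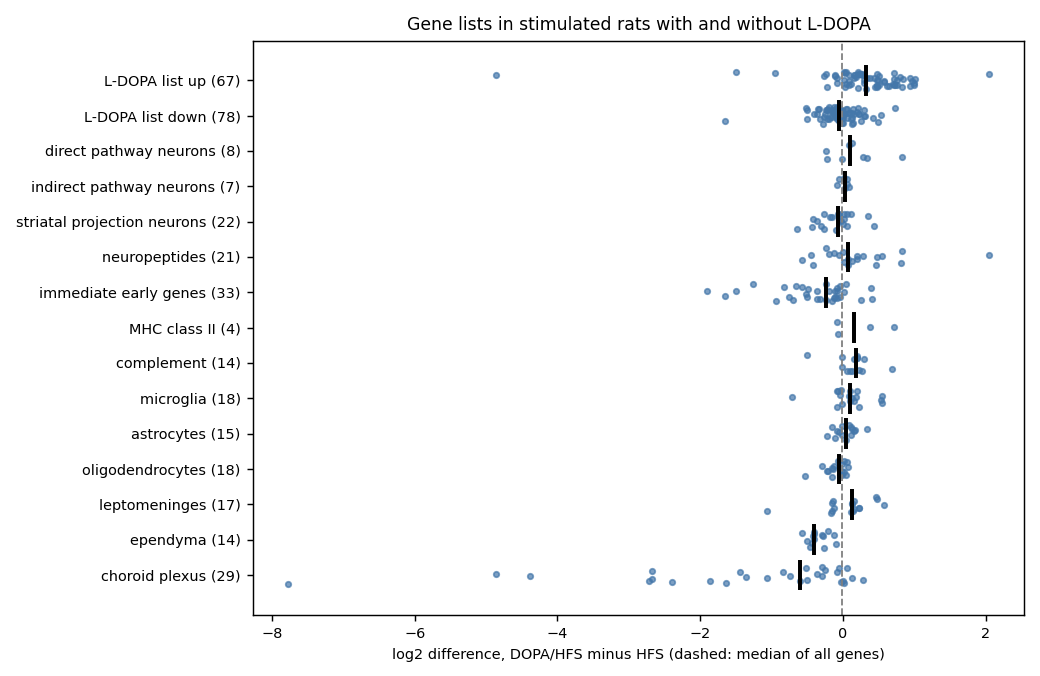
Log2 difference DOPA/HFS minus HFS (x axis) of each gene with a value on all 6 arrays (points), for 15 lists with the number of genes in brackets. Black bars are medians and the dashed line is the median of all genes, -0.02. The L-DOPA list up has its median at 0.32, immediate early genes at -0.24, ependyma at -0.4 and choroid plexus at -0.6.

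Outside these lists, Igsf5 (an immunoglobulin superfamily adhesion protein) had the lowest p among higher genes. It read 6.83, 7.36 and 7.59 against 5.87, 6.17 and 6.01, with a difference of 1.24 ± 0.23 (unadjusted p = 0.00147 in limma). Kcnq3, a subunit of the M-type potassium channel, read 10.12, 10.76 and 9.89 against 9.33, 9.29 and 9.21, and Calcr (calcitonin receptor) read 7.52, 9.42 and 7.1 against 4.59, 6.46 and 6.83. The groups did not overlap in these 3 genes.

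Among the lower genes outside the lists, Pls3 (plastin 3, an actin bundler) read 9.39, 9.53 and 9.61 against 10.33, 10.58 and 10.42. The arrays of each group lay close together and the groups were apart, with a difference of -0.93 ± 0.2, but the mean of all probes of this gene gave -0.42. Cnmd (chondromodulin) read 2.95, 2.69 and 2.69 against 11.35, 6.41 and 7.13. It was not well above background on any DOPA/HFS array and was at least 12.4-fold lower in the main processing. That bound did not hold in the deposited log2 values, where the difference was -2.43, beside -5.52 in the main fit.

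Whether L-DOPA did the same with and without stimulation was tested as a difference of differences over all 12 arrays, which share no array between both terms but share slides. Of 20420 genes, 0 were called in limma with the slide as a block (lowest adjusted p of 1), with 214 higher and 333 lower at an unadjusted p under 0.05. Across the 18314 genes that none of the 12 arrays lacks, the L-DOPA differences with and without stimulation had a Pearson correlation of 0.0718 and a Spearman correlation of 0.0579, which describe genes and not independent replicates. The study's list of raised genes had a median L-DOPA difference of 0.38 with and 0.78 without stimulation over 71 genes, and the list of lowered genes -0.05 and -0.49 over 78. As these lists were chosen on the arrays without stimulation, no comparison is drawn from the second values.

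Normalized among the 12 arrays, Trh read 10.77, 10.75 and 10.61 in DOPA and 8, 8.07 and 8.04 in 6-OHDA, a difference of 2.67, beside 2.06 with stimulation. Pls3 had the lowest p for a lower L-DOPA difference under stimulation, with -0.94 with and 0.41 without stimulation (unadjusted p = 0.000203 in limma). Nr4a3 was next but one in that order, with -1.5 with stimulation and 0.53 without (difference of -2.04 ± 0.36). For Fos both L-DOPA differences were negative, at -1.65 with and -1.26 without stimulation. The choroid plexus list had a median of -0.51 with stimulation and -0.03 without over 26 genes, where Ttr read 2.41, 10.29 and 13.81 in DOPA and 6.23, 6.59 and 5.8 in 6-OHDA.

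Slc24a5 (a potassium-dependent sodium and calcium exchanger), Acsm5 (an acyl-CoA synthetase) and Pmf31 had likewise a lower L-DOPA difference under stimulation, by -1.89, -1.9 and -1.22. The opposite order, a higher difference under stimulation, was led by Dmrtc1b, Ikbkg (a subunit of the NF-kappaB activating kinase complex), Dusp15, Wnt2b and Zfp54, at 0.76, 0.88, 0.79, 0.97 and 0.77. None of these differences passed the adjusted test.

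**Figure D5:**
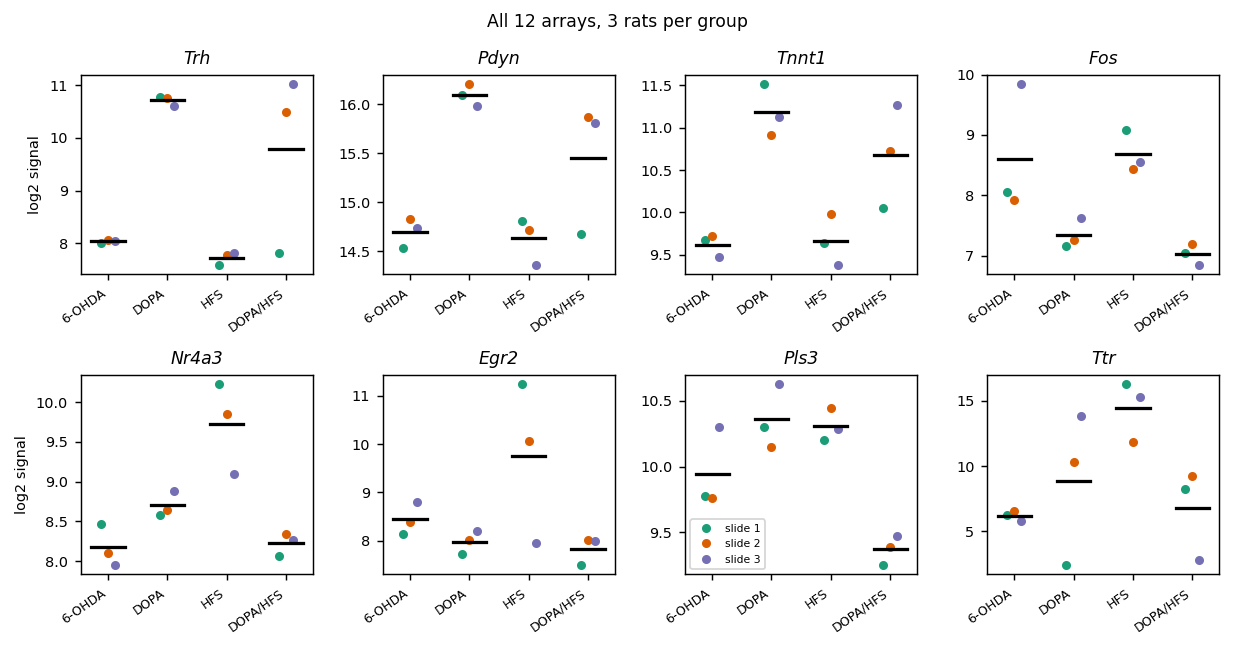
Log2 signal (y axis) of 8 genes on all 12 arrays, normalized together, in the groups 6-OHDA, DOPA, HFS and DOPA/HFS. Each point is 1 rat (colours mark slides) and black bars are group means. Trh and Pdyn are high in DOPA and in 2 of 3 DOPA/HFS rats, Nr4a3 is highest in HFS, and Pls3 is lowest in DOPA/HFS.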

How the data were processed

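Striatal RNA of 12 rats was measured on 12 single-colour Agilent arrays, of which 6 (DOPA/HFS and HFS, by sample title) are compared here. The authors deposited scanner intensity values made with Agilent Feature Extraction 9.1 (background-subtracted and spatially detrended, not normalized between arrays), and log2 values that they had quantile normalized over all arrays. The genes and lists were chosen with earlier results of these data known.

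The log2 processed intensity of 43379 non-control spots without outlier flags was quantile normalized among the 6 arrays, so a difference is relative to the array's whole distribution. Spots of a probe were averaged, probes well above background on at least 3 of 6 arrays were kept, and the brightest probe stood for a gene. Of 41012 probes, 10735 were named through RefSeq accessions (GRCr8 annotation), 9300 through a current symbol or synonym, and the others by the names in the files. R 4.3.3, limma 3.58.1, data.table (version 1.17.8) and jsonlite 2.0.0 were used. The fit was lmFit and eBayes with group and slide, a call needed an adjusted p below 0.1 with a ratio outside 0.8 to 1.2, and the fit was tested on simulated data. A gene that no array of 1 group measured well above background has only a bound, the bright group's mean against the higher of the dim value and the array's lowest signal among probes well above background.

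The sample number marks a slide. Same-numbered arrays did not deviate together (correlations of -0.27, 0.08 and -0.14 for numbers 1 to 3). These deviations were taken from means of only 3 arrays, so they cannot decide whether the numbers pair rats. The block was kept because slides are shared. Single genes were tested by exact two-sided permutation (20 divisions, smallest p 0.1). Named genes were those of the lists, the 15 lowest p and the 10 largest non-overlapping differences in each direction, and 5 in each direction for the difference between conditions, from which a selection is given. Replicates are single rats, and the number of arrays limits the precision.

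Alternatives were the slide left out or random, scaling to the 75th percentile, quantile normalization among 12 arrays, normexp with an offset of 50, the deposited log2 values, other filters, the mean of all probes, outlier spots kept, all 12 arrays, and leaving out slides or arrays. Leaving DOPA/HFS 1 out of the 12-array fit was added after the data had been seen.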

Additional observations from a re-analysis of the deposited data

How the results depend on the processing

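The number of called genes was 0 under every alternative that kept all 6 arrays, also without the slide block (0 genes, lowest adjusted p 0.177) and with the slide as a random block (0 genes, 0.376). Leaving out slides or single arrays gave 0 to 86 calls (without a slide 1 residual degree of freedom remains, and where 2 arrays of a group remain the block was left out), 162 to 881 genes higher and 292 to 1369 lower at an unadjusted p under 0.05. Without the block these counts were 180 and 420, and with the random block 99 and 258. The deposited table gave 42 higher, keeping outlier spots 64, and no filter on dim probes 386 higher and 806 lower. The difference between conditions called 0 genes under all its alternatives, without the block too (153 higher and 253 lower at an unadjusted p under 0.05). There the deposited table gave 65 and 513, no filter 439 and 609, outlier spots kept 78 higher, and leaving out arrays 205 to 349 higher. The cause was not tested.

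The slide block cannot change the list medians, because every gene in them has 1 array of each group on each slide. Over the left-out slides and arrays the choroid plexus median ran from -1.23 to -0.44, that of ependyma from -0.56 to -0.14 and that of the study's lowered genes from -0.12 to 0. Ependyma was at -0.26 with normexp, -0.29 without a filter and -0.51 with outlier spots kept, and the lowered genes were at -0.17 in the deposited table and -0.15 with outlier spots kept. The raised genes ran from 0.2 to 0.58 over the left-out slides and arrays and were at 0.13 in the deposited table, and the immediate early genes ran from -0.51 to -0.05. Under at least 1 alternative the median of 18 of 26 lists changed sign. Among these were the neuropeptide receptors in the deposited table (-0.05) and without HFS 1 (-0.04), interferon response (up to 0.1), class II genes (down to -0.11), leptomeninges (down to -0.06) and cortex (-0.29 to 0.35). The 8 that did not were both lists of the study, immediate early, choroid plexus, ependymal, complement, direct pathway and oligodendrocyte genes. Of these, the study's lowered genes and the complement genes reached 0 under at least 1 alternative. With arrays or slides left out, the neuropeptide receptors ran from -0.04 to 0.22 and Nr4a1, which turned without slide 1 (0.14), from -1.45 to 0.14. The other single genes recomputed, among them Trh, Prkcd, Fos, Nr4a3 and Ttr, kept their direction. The cause was not tested. Dim genes near background carry the least precise values.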
